A study of Mus musculus with 24 samples.

Results

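The nuclear genes of oxidative phosphorylation were read in the mouse leukaemia line DA1-3B, which carries Bcr-Abl, after transfection with plasmids for the NF-kB subunit p65/RelA or its fragments. The genes were every gene name on the array that begins with Nduf, Uqcr, Atp5 or Cox4 to Cox8, together with Sdha, Sdhb, Sdhc, Sdhd and Cycs. This gave 94 genes of 30339 gene names, read by 139 probes, and the brightest probe stood for each gene. The names cover 38 genes of complex I, 7 complex I assembly factors (Ndufaf), 4 of complex II, 8 of complex III, cytochrome c, 18 of complex IV and 18 of complex V. The rule also took in Atp5c1-ps, whose name marks a pseudogene, and Atp5s and Atp5sl, which RefSeq lists as Dmac2l and Dmac2. These were counted in complex V by name only.

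There were 6 groups of 4 arrays. The tested plasmids carried both p65/RelA fragments together (p65/RelA-p1-361+p363-549), the C-terminal fragment alone (p65/RelA-p363-549), the N-terminal fragment alone (p65/RelA-p1-361), the non-cleavable mutant p65/RelA-D361E, or full-length p65/RelA-WT. The controls received an empty plasmid (VOID). All groups shared the line DA1-3B Bcr-ABL+ and the strain label C3H eOuJ, and none is described as lacking its own p65. The dose of plasmid, the time after transfection and the share of cells transfected are not given in the sources used here. In the treatment text the C-terminal fragment starts 1 residue before the position in its sample names. The labels do not tell whether the 4 samples of a group were grown and transfected separately. The p-values therefore measure only the spread between these samples, which may be technical. In such bulk RNA, fewer cells of a type and less RNA per cell cannot be told apart.

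Oxidative phosphorylation passes electrons from NADH through complex I, or from succinate through complex II, to complex III, then by cytochrome c to complex IV, where oxygen is reduced. Complexes I, III and IV pump protons across the inner mitochondrial membrane, and complex V (ATP synthase) lets them return and makes ATP. Most subunits are encoded in the nucleus, a few core subunits of complexes I, III, IV and V in mitochondrial DNA, and several complex IV subunits have a second gene used mainly in heart and skeletal muscle or in testis.

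Levels are log2 processed signals minus the array's 75th percentile, so a value of 0 is a probe at that percentile of its own array and a difference of 1 is a doubling. Levels of different probes are not compared, because probes differ in how strongly they bind. The array's 75th percentile lay between 635.8 and 1213.6 signal units, and between 49.4% and 55.5% of spots were well above background. Of the 94 genes, 89 were well above background on all 24 arrays and 91 passed the filter, which kept a probe when every array of 1 or more groups read it well above background. The other 3 are the second genes Cox7b2, Cox8b and Cox8c, which were well above background on 1, 1 and 2 of 24 arrays. Ndufa4l2 passed with 14 of 24 arrays, and Ndufb9 with 23, the other array lacking a usable spot.

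Over the 200 genes used to compare arrays, 21 of the 24 arrays resembled their own group most. The 3 exceptions were the arrays numbered 4 of the fragment groups. The fourth p363-549 array correlated at 0.97 with the both-fragment arrays and at -0.55 with its own group. The fourth p1-361 array correlated at 0.78 with p363-549 and at 0.14 with its own group. The fourth both-fragment array correlated at 0.71 with p1-361 and at -0.09 with its own group. They were kept under their labels, and the counts of calls, the medians and the genes whose calls these 3 changed are also given without them. Because these 3 were picked by their expression in these same data, leaving them out tends to narrow the spread within groups. The p-values without them are therefore not independent support. The Rela level exceeded that of VOID by 0.47 ± 0.10 (log2, SE) with both fragments, by 0.49 in p363-549, by 0.43 in p1-361, by 0.36 in D361E and by 0.40 in WT. The probe that stood for Rela may lie outside the coding sequence of the plasmids. Of 8 blood markers, 5 (Ptprc, Spi1, Csf2rb, Itgam and Il3ra) were well above background on all 24 arrays, Mpo on 4, Cd34 on 1 and Kit on 0. Of 4 T cell markers, Cd3e and Cd4 were also well above background on all 24, Cd3g on 12 and Cd8a on 0.

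The sequences below belong to Ndufs8 and Cox7a1, on which results of complexes I and IV turn, and to Cox6a1, a complex IV isoform that varied little. RefSeq (GRCm38.p6) gave a promoter window, 250 bases before to 50 after the start, for 77 of the 94 genes. Each window was searched on both strands for the letters CGCATGCG (bound by NRF1), CCGGAAG (bound by GABP, also called NRF2), AAGATGG (bound by YY1) and for GGGACTTTC and GGAANTTCC, forms bound by NF-kB. NRF1 and GABP are textbook activators of respiratory chain genes. Capitals mark a match, and positions count from the first transcribed base as 1. The Cox6a1 window, chr5:115348909-115349208 on the minus strand, holds the NRF1 letters at -161 and the GABP letters, on the opposite strand, at -16. The Ndufs8 window, chr19:3912725-3913024 on the minus strand, holds the GABP letters at 16, also on the opposite strand. The Cox7a1 window, chr7:30183921-30184220 on the plus strand, holds none of the 5.
Cox6a1 promoter: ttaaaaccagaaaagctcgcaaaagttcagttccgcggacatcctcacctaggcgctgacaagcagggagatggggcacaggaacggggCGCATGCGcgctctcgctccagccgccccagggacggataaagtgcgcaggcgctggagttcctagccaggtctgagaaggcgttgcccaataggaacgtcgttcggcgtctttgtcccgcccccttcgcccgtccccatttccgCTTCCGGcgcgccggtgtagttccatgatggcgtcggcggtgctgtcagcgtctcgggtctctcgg
Ndufs8 promoter: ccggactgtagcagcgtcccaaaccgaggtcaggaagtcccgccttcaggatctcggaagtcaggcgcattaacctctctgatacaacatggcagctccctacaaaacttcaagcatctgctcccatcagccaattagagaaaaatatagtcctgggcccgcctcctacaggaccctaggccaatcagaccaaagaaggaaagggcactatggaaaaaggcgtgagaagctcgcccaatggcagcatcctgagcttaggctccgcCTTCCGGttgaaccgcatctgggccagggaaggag
Cox7a1 promoter: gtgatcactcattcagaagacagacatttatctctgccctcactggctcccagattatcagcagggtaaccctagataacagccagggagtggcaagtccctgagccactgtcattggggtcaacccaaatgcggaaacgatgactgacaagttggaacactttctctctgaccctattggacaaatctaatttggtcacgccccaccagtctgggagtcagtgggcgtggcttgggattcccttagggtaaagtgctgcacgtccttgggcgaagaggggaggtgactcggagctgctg

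Across the windows of the 77 genes, the NRF1 letters occurred in 11 (14.3%), against 1.91% of all 27025 windows. The GABP letters occurred in 16 (20.8%), against 9.12% of all, and the YY1 letters in 11 (14.3%), against 6.48%. The NF-kB forms occurred in 1 window (1.30%, against 0.344% of all) and in 2 windows (2.60%, against 0.973%). A match is a string of letters in a window and does not show that a factor bound there. The probes that read Cox7a1 and Ndufs8 are printed because each gene rests on 1 probe. Cox6a2 also rests on 1 probe, which is not printed. In build mm9 the Cox7a1 probe runs from chr7:30970337-30970948 on the plus strand across an intron, and the Ndufs8 probe lies at chr19:3911177-3911236 on the minus strand. The longest run of bases that the Cox7a1 probe shares with the Cox7a2 probe is 6, and that of the Cox6a2 probe with the Cox6a1 probe is also 6.
Cox7a1 probe: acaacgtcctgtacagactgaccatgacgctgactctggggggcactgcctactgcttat
Ndufs8 probe: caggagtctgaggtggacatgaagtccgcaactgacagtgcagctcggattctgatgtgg

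Across the 6 groups, few genes passed, in this set or over all genes. In limma's F test, which asks whether any group differed, 1 of the 91 genes passed an adjusted p of 0.05, against 2.82% of all 15055 genes tested. That gene was Cox6a2 (adjusted p = 0.00545), whose group means spanned 3.17 log2 units. Ndufs8 came next (adjusted p = 0.0596). The median range of group means was 0.31 log2 units over the 91 genes and 0.45 over all genes, and the median within-group SD was 0.21 and 0.32. Range and spread were both smaller in this set, so the narrower range does not show that these genes moved less.

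With both fragments against VOID, 2 of the 91 genes changed, where 4.45% of all genes passed: Ndufs8 rose (1.95% of all genes rose) and Cox6a2 fell (2.50% fell). In the other comparisons with VOID, 0 of 91 passed, where 0.571% of all genes passed for p363-549, 0.717% for p1-361, 0.658% for D361E and 0.485% for WT. At an unadjusted p under 0.05 the counts were 14 of 91 with both fragments (18.6% of all genes), 5 in p363-549 (6.82%), 6 in p1-361 (7.84%), 0 in D361E (6.30%) and 1 in WT (5.67%). Without the 3 arrays, 6 of 91 passed with both fragments (9.57% of all genes), 4 in p1-361 (2.66%) and 0 in p363-549 (0.870%). At an unadjusted p under 0.05 the counts without them were 22 with both fragments (22.6%), 7 in p1-361 (12.4%) and 6 in p363-549 (9.17%).

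The 24 title numbers also fall into 4 sets of 6 in a row, each with 1 array of every group. With these sets as a block, 9 of 91 passed with both fragments, where 16.1% of all genes did, 2 in p1-361 (3.00%), 1 in p363-549 (1.80%), 2 in WT (1.47%) and 0 in D361E (1.79%). More genes passed in every one of these comparisons over all genes, and what the sets stand for is not given in the sources used here.

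Genes whose groups did not overlap, with all 4 arrays of a group above or below all 4 VOID arrays, are given beside the share of all genes that did the same. With both fragments, 5 of 91 were higher (5.56% of all genes) and 2 lower (4.54%). In p363-549, 1 was higher (1.65%) and 0 lower (1.65%). In p1-361, 2 were higher (2.46%) and 2 lower (2.29%). In D361E, 0 were higher (2.76%) and 1 lower (2.00%), and in WT, 2 were higher (2.34%) and 0 lower (2.43%). Ndufs8 was among the higher ones with both fragments and in p363-549, p1-361 and WT, and Cox6a2 among the lower ones with both fragments and in p1-361. When the 3 arrays were left out, 15 of 91 were higher with both fragments (9.5% of all genes) and 4 lower (8.03%). In p1-361, 4 were then higher (5.95%) and 10 lower (5.68%), and in p363-549, 5 were higher (3.99%) and 2 lower (3.13%). Groups left with 3 arrays fail to overlap more easily than groups of 4.

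**Figure D1:**
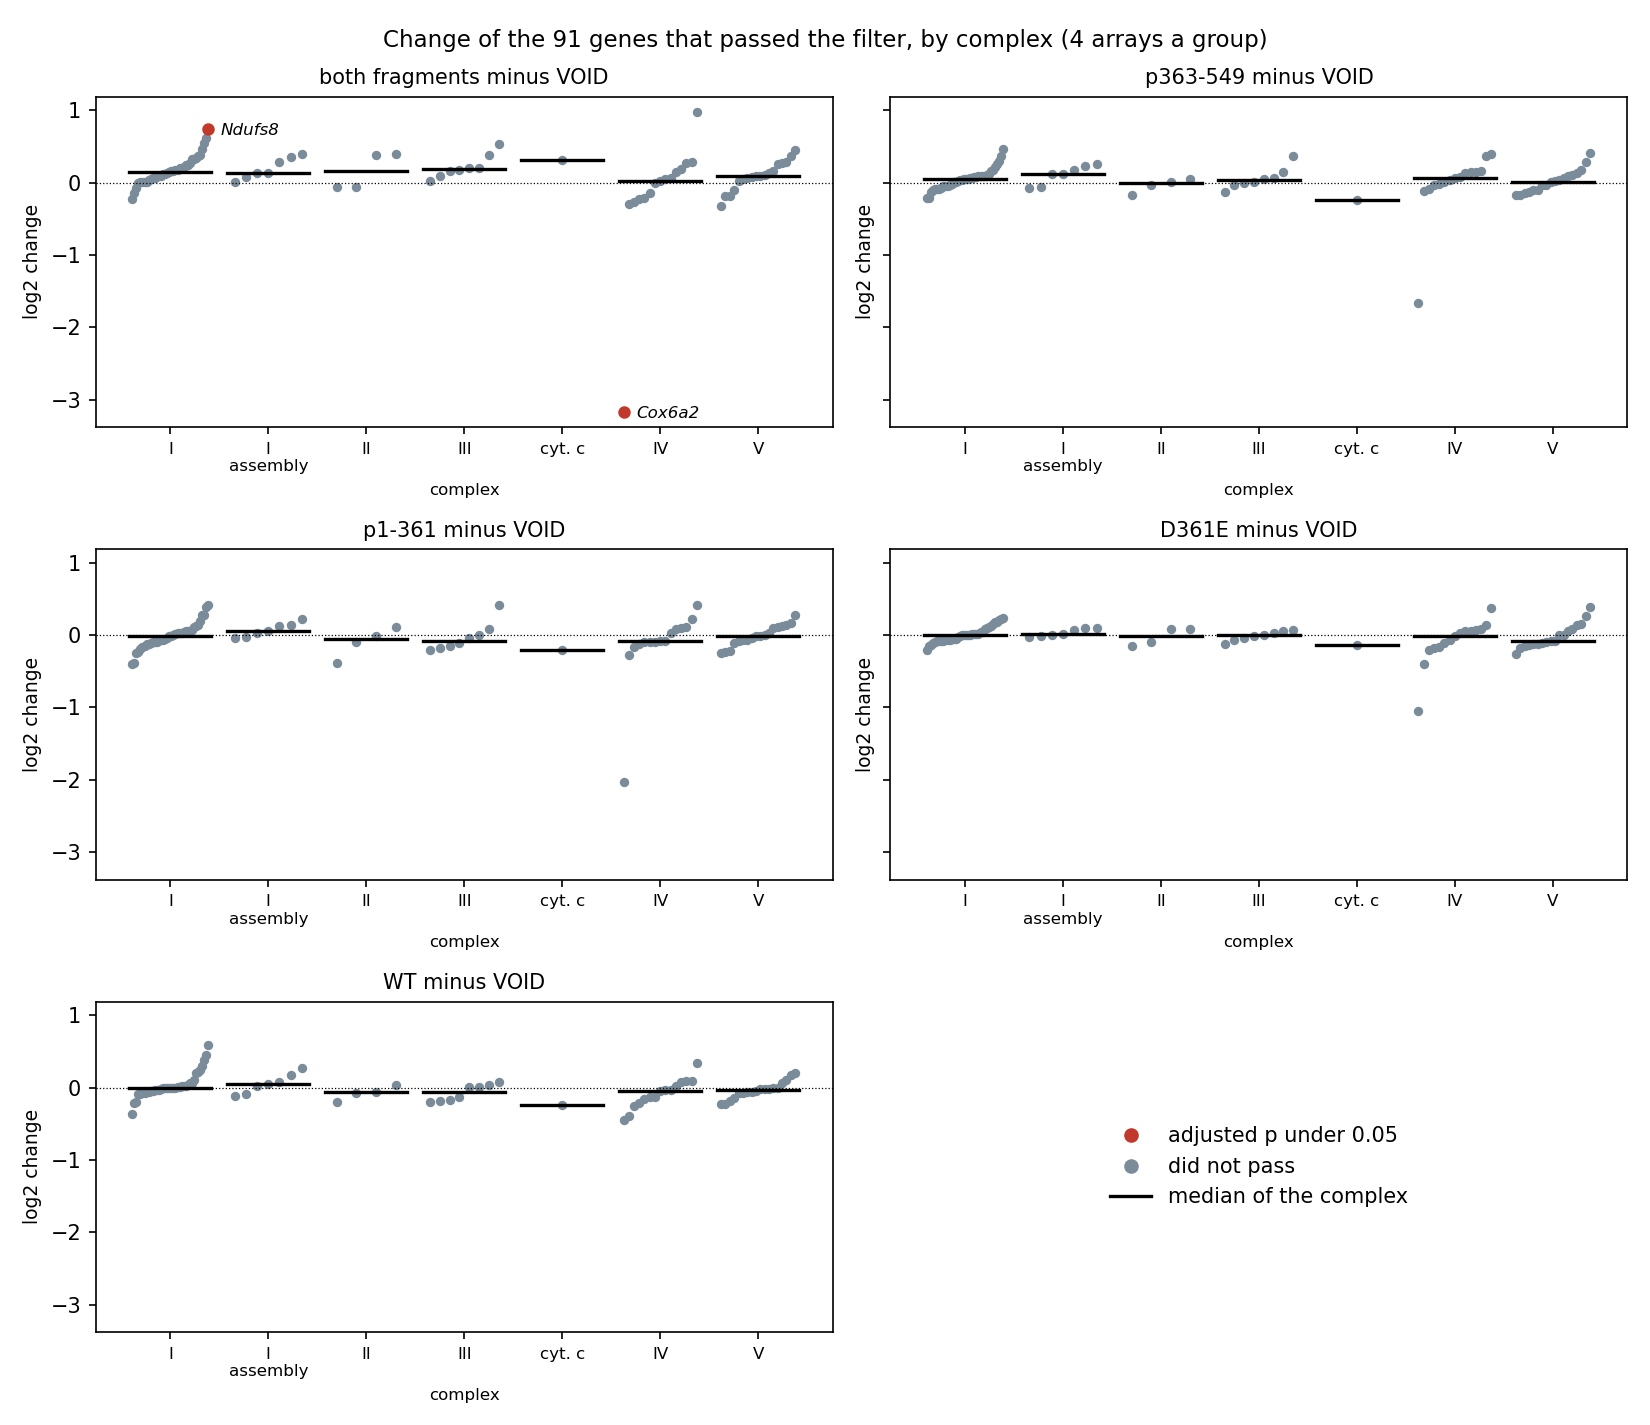
Change of each of the 91 genes against VOID, in log2 units, by complex, with a panel for each of the 5 plasmid groups (4 arrays a group); red points passed an adjusted p of 0.05 and black lines are medians. Ndufs8 at 0.74 and Cox6a2 at -3.17 are the only red points, both in the panel for both fragments, and most other points lie close to 0.

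Complex I takes electrons from NADH. Ndufs8 encodes one of its core iron-sulfur subunits, close to where ubiquinone binds. Its level was 2.76, 2.86, 2.37 and 2.72 with both fragments, 2.13, 2.49, 2.29 and 2.67 in p363-549, and 2.09, 2.47, 2.28 and 2.55 in p1-361. It was 1.86, 2.17, 2.11 and 2.47 in D361E, 2.31, 2.30, 2.36 and 2.56 in WT, and 1.80, 1.94, 1.93 and 2.06 in VOID. Every array with both fragments, with either fragment alone or with WT lay above every VOID array, while D361E overlapped VOID. Ndufs8 averaged 2.68 ± 0.21 with both fragments and 1.93 ± 0.11 in VOID (SD, n = 4 each), a rise of 0.74 ± 0.15 (log2, SE; 1.67-fold; limma, adjusted p = 0.00506). The differences were 0.46 in p363-549 (adjusted p = 0.279), 0.41 in p1-361 (adjusted p = 0.341), 0.22 in D361E (adjusted p = 1.00) and 0.45 in WT (adjusted p = 0.387), none of which passed.

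Array brightness moved with this result. The 75th percentile was 847 to 1214 signal units on the both-fragment arrays and 666 to 924 on the VOID arrays. With brightness as a covariate the Ndufs8 difference was 0.53 (adjusted p = 0.0881), and with only the 8 arrays compared it was 0.74 (adjusted p = 0.0570). Without the 3 arrays it was 0.73 (adjusted p = 0.00448). On the slides that held both groups it was 0.31 and 0.82. With the 4 sets of consecutive title numbers as a block, Ndufs8 also passed in p363-549, p1-361 and WT (adjusted p = 0.0274, 0.0384 and 0.0362).

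Other complex I genes did not pass with both fragments. Ndufv1 and Ndufv2 encode subunits of the module that takes up NADH. Ndufv1 was higher by 0.38 ± 0.15 (adjusted p = 0.160), with every both-fragment array above every VOID array. Ndufv2 was 4.75, 4.99, 4.60 and 4.43 with both fragments, against 4.47, 4.14, 4.09 and 4.21 in VOID, a difference of 0.46 ± 0.15 (adjusted p = 0.0960). Only the fourth both-fragment array lay within the VOID range, and without the 3 arrays the difference was 0.55 (adjusted p = 0.0343). Ndufv2 also passed without that array alone. Ndufs3, a core subunit of the arm that faces the matrix, was 4.88, 4.98, 4.84 and 4.37 with both fragments, against 4.63, 4.50, 4.47 and 4.58 in VOID. Here too the fourth both-fragment array stood below the other 3, and without the 3 arrays the difference was 0.35 (adjusted p = 0.0475). Ndufa11, a membrane subunit, was higher by 0.61 ± 0.22 with overlapping groups (adjusted p = 0.121).

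The membrane-arm subunit Ndufb8 had the narrowest span of group means of the 91 genes, at 0.07 log2 units. Ndufa4, named for complex I but now assigned to complex IV, lay between 3.99 and 4.66 on all arrays, and its relative Ndufa4l2 was dim throughout, between -5.68 and -3.18. None of the 7 assembly factors passed, and the widest span of their group means was 0.40, for Ndufaf7, a methyltransferase. Ndufaf6 was 0.80, 0.97, 0.22 and 0.95 with both fragments, 1.01, 0.87, 0.84 and 1.08 in p1-361, and 0.88, 0.83, 1.10 and 0.83 in WT, against 0.82, 0.65, 0.77 and 0.69 in VOID. All p1-361 and WT arrays lay above all VOID arrays, with differences of 0.22 and 0.17 that did not pass (adjusted p = 0.878 and 0.999). Ndufaf1 lay between 1.38 and 2.02 and Ndufaf5 between -1.86 and -0.78 on all arrays, with every group overlapping VOID.

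**Figure D2:**
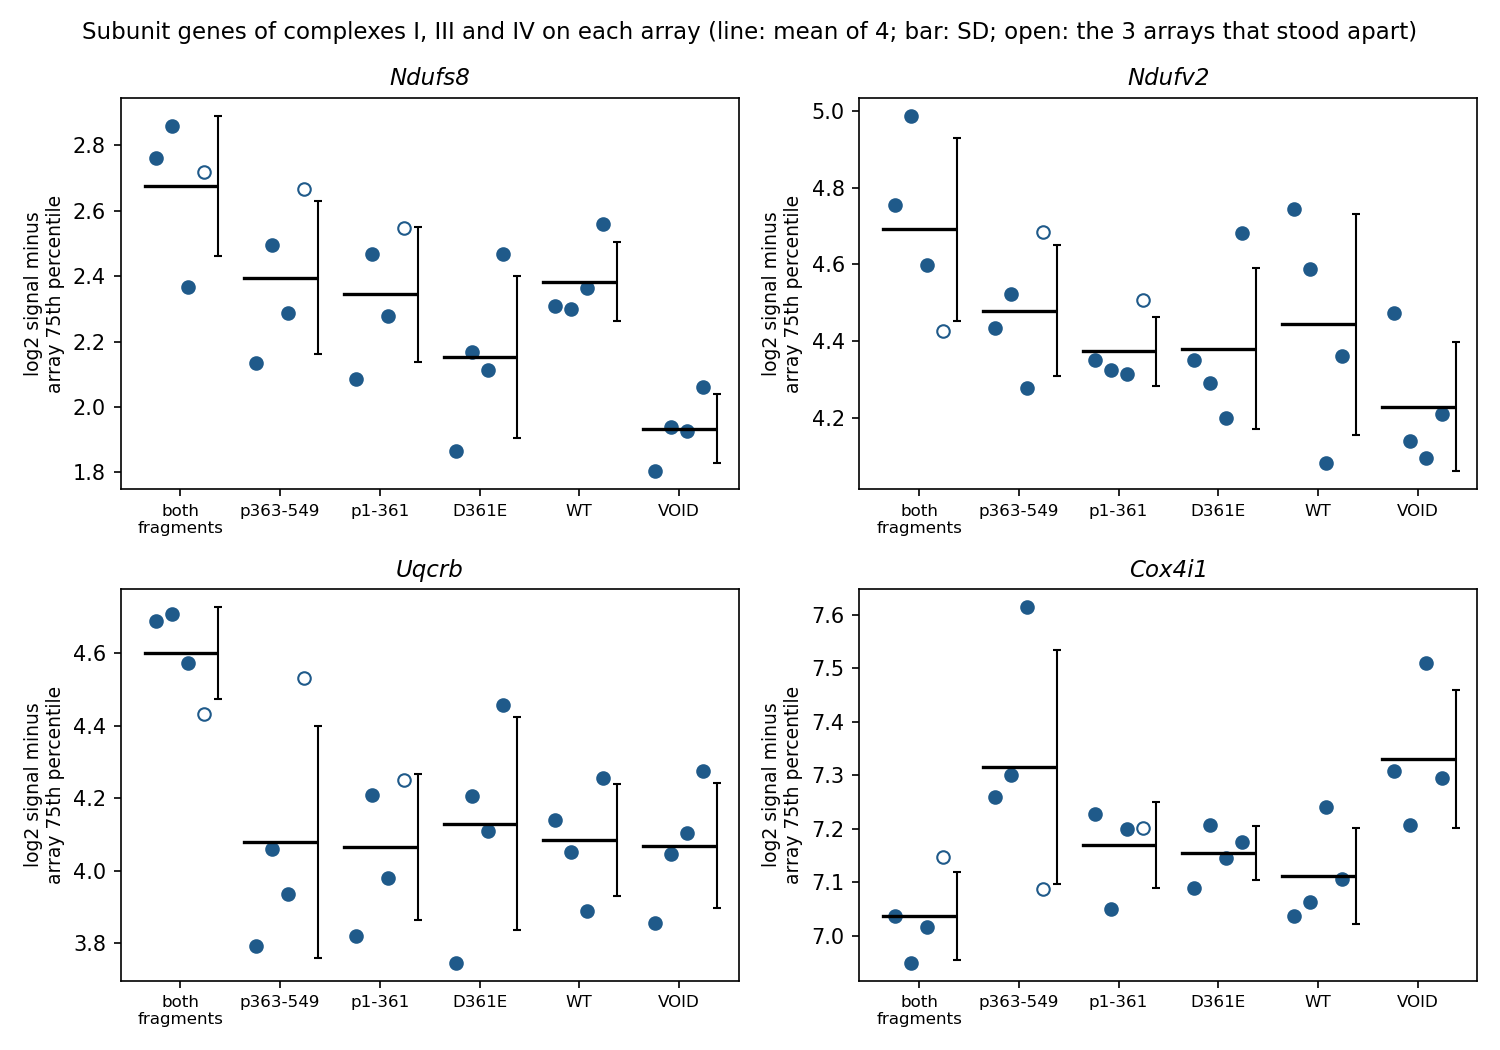
Level of Ndufs8, Ndufv2, Uqcrb and Cox4i1 on each of 24 arrays, as log2 signal minus the array's 75th percentile, by group, each panel on its own scale; lines are means of 4 arrays, bars are SD, and open points are the 3 arrays that resembled another group. Ndufs8 is higher with both fragments (mean 2.68) than in VOID (mean 1.93), and Uqcrb with both fragments lies above every VOID array.

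Complex II, succinate dehydrogenase, also serves the citric acid cycle. Its flavoprotein gene Sdha was 3.91, 4.17, 3.80 and 3.69 with both fragments, against 3.55, 3.40, 3.43 and 3.63 in VOID. The groups did not overlap, and the difference of 0.39 ± 0.16 did not pass (adjusted p = 0.192). Sdhd, a membrane anchor, differed by 0.38 ± 0.17 with overlapping groups (adjusted p = 0.245). The iron-sulfur subunit gene Sdhb lay between 4.74 and 5.50 on all arrays, and the other anchor gene Sdhc between 2.86 and 3.85. Sdhc in p1-361 was 3.28, 2.86, 2.92 and 3.72, against 3.85, 3.55, 3.40 and 3.55 in VOID, and the fourth p1-361 array again stood above the other 3. Without the 3 arrays Sdhc passed, at -0.57 (adjusted p = 0.0473).

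In complex III, Uqcrb, a small subunit next to the site where ubiquinone binds, was 4.69, 4.71, 4.57 and 4.43 with both fragments, against 3.85, 4.04, 4.10 and 4.27 in VOID. The groups did not overlap, and the difference of 0.53 ± 0.17 missed the threshold (adjusted p = 0.0718). It was 0.59 without the 3 arrays (adjusted p = 0.0214) and 0.53 without the fourth p363-549 array alone (adjusted p = 0.0323). The other probes for Uqcrb gave 0.51 and 0.54. Uqcrh, the hinge protein that helps dock cytochrome c, was 6.06, 6.44, 6.41 and 5.79 in p1-361, against 5.51, 5.75, 6.04 and 5.75 in VOID. It passed only without the 3 arrays, at 0.54 (adjusted p = 0.0470). Uqcrc2, one of the large core proteins, was 4.82, 4.94, 4.65 and 4.38 with both fragments, against 4.46, 4.60, 4.54 and 4.54 in VOID, a difference of 0.16 ± 0.12 (adjusted p = 0.495). The first 3 both-fragment arrays lay above all VOID arrays and the fourth below them. The Rieske iron-sulfur gene Uqcrfs1 lay between 3.62 and 4.23 on all arrays.

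Cycs, which encodes the cytochrome c that carries electrons from complex III to complex IV, was 5.27, 5.49, 4.27 and 4.97 with both fragments, against 4.92, 4.67, 4.23 and 4.91 in VOID. The groups overlapped, and the difference was 0.32 ± 0.27 (adjusted p = 0.538). Cycs was at its highest on the second both-fragment array and at its lowest, 4.10, in WT and p363-549.

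Complex IV held the largest difference. Cox6a2 encodes subunit 6A of cytochrome c oxidase in its heart and skeletal muscle form, and Cox6a1 the form used in most tissues. Cox6a2 was -1.91, -2.48, -1.26 and -0.98 with both fragments, 0.39, 0.33, 0.96 and -2.29 in p363-549, and -0.89, -0.98, -0.56 and 0.35 in p1-361. It was 0.83, 0.35, 0.42 and 0.24 in D361E, 1.00, 0.78, 1.94 and 0.73 in WT, and 2.21, 1.66, 1.42 and 0.75 in VOID. It was well above background on all 24 arrays, so the low values are measured and not bounds. All both-fragment arrays lay below all arrays of D361E, WT and VOID, and the fourth p363-549 array lay among them.

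Cox6a2 averaged -1.66 ± 0.67 with both fragments and 1.51 ± 0.60 in VOID (SD, n = 4 each). It fell by 3.17 on the log2 scale (SE 0.52), to 0.111 of the VOID signal (limma, adjusted p = 0.000906), and passed in all 38 alternatives tried, with adjusted p from 1.11e-06 to 0.0171. On the slides that held both groups the differences were -2.02 and -3.57. In p1-361 the difference was -2.03 ± 0.52 with groups that did not overlap (adjusted p = 0.0830), and without the 3 arrays it was -2.32 (adjusted p = 0.000409). It also passed without the fourth p1-361 array alone (-2.32, adjusted p = 0.0373), without the fourth p363-549 array alone (-2.03, adjusted p = 0.00415), with only the 8 arrays compared (-2.03, adjusted p = 0.0439) and with the title-number sets as a block (-2.03, adjusted p = 0.0390). In p363-549 it was -1.66 (adjusted p = 0.246), and -0.95 without the 3 arrays (adjusted p = 0.309). In D361E it was -1.05 (adjusted p = 0.817) and in WT -0.40 (adjusted p = 0.999).

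Cox6a1 stayed between 7.45 and 7.93 on all arrays, and its difference with both fragments was -0.14 ± 0.10 (95% interval -0.34 to 0.07; adjusted p = 0.460). Of 6 muscle markers, Ckm and Myh7 were well above background on all 24 arrays, Acta1 on 17, Tnnt3 on 1, and Myh6 and Actc1 on 0. Their summed signal was 3376 to 7127 with both fragments and 3241 to 4954 in VOID, and none of the 3 tested passed, while 1 of them, Myh7, had an unadjusted p under 0.05 (0.46, adjusted p = 0.145). Markers of other cell types were also lower in this comparison. The mast cell genes Cpa3, Fcer1a and Mcpt8 fell with both fragments, with a summed signal over 4 markers of 33.3 to 376.9 against 1504 to 4078 in VOID, and Kit at 0 arrays. On the both-fragment arrays Cpa3 was well above background on 2 of 4, Mcpt8 on 1 and Fcer1a on 0, against all 4 VOID arrays for each, so the low sums are near background. Fcer1a therefore has only a bound with both fragments. Mcpt8 passed the filter through VOID alone, so its difference from VOID was partly set by the filter. All 3 tested of the 4 erythroid markers also fell, with a summed signal of 13631 to 20873 against 32798 to 74582 in VOID. The erythroid sum was lower still in WT, 5618 to 14331. The mast cell sum was 41.9 to 999 in p363-549, 364 to 1034 in p1-361, 275 to 468 in D361E and 1294 to 3216 in WT. With both fragments the blood marker Csf2rb also fell, with a summed signal over the 8 blood markers of 41306 to 52180 against 55477 to 79416 in VOID. Their part in the Cox6a2 result was not tested.

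**Figure D3:**
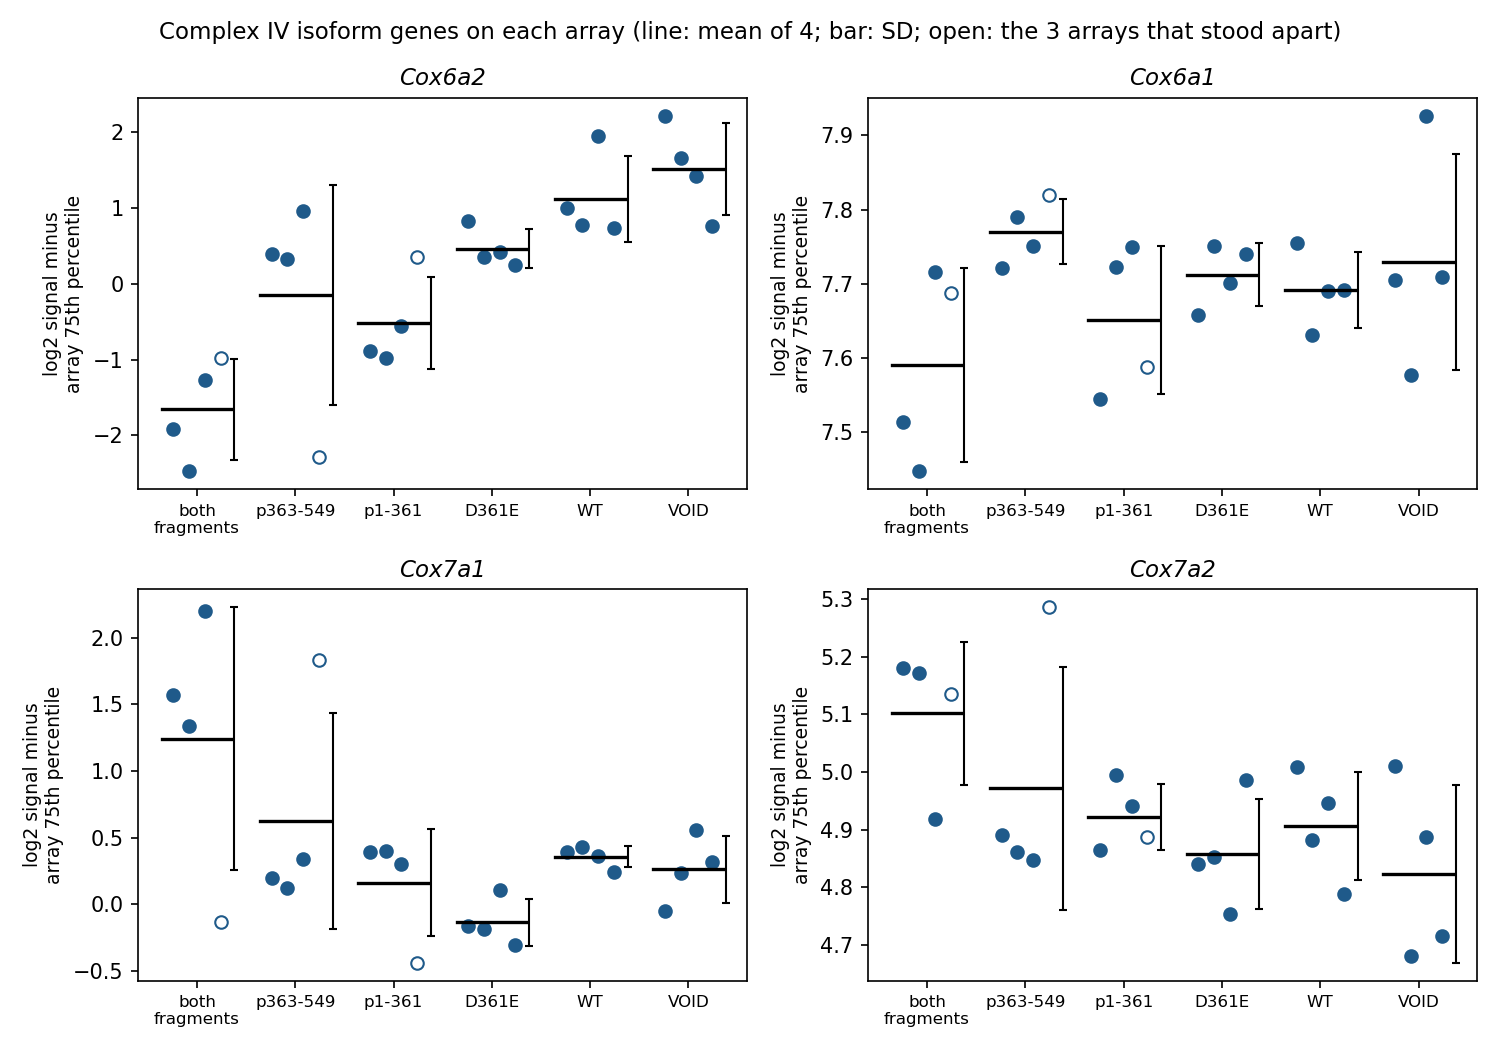
Level of the muscle forms Cox6a2 and Cox7a1 and of the general forms Cox6a1 and Cox7a2 on each of 24 arrays, as log2 signal minus the array's 75th percentile, by group, each panel on its own scale; lines are means of 4 arrays, bars are SD, and open points are the 3 arrays that resembled another group. Cox6a2 is lowest with both fragments (mean -1.66) and highest in VOID (mean 1.51), whereas Cox7a1 is highest on 3 of 4 both-fragment arrays and on the fourth p363-549 array.

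Cox7a1, the muscle form of subunit 7A, ran the other way. It was 1.57, 1.34, 2.20 and -0.14 with both fragments, 0.20, 0.12, 0.34 and 1.83 in p363-549, and 0.39, 0.40, 0.30 and -0.44 in p1-361. It was -0.16, -0.19, 0.11 and -0.30 in D361E, 0.39, 0.43, 0.36 and 0.24 in WT, and -0.06, 0.23, 0.56 and 0.31 in VOID. The high arrays were the first 3 with both fragments and the fourth of p363-549, and the fourth both-fragment array was low. As labelled, the difference from VOID was 0.98 ± 0.38 (adjusted p = 0.157). Without the 3 arrays it was 1.44 ± 0.17 (adjusted p = 1.31e-05), and without the fourth both-fragment array alone it was 1.44 (adjusted p = 0.00646). Cox7a2, the general form, lay between 4.68 and 5.29 on all arrays and differed by 0.28 ± 0.12 with both fragments (adjusted p = 0.197).

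Cox4i1, the general form of subunit 4, was 7.04, 6.95, 7.02 and 7.15 with both fragments, against 7.31, 7.21, 7.51 and 7.30 in VOID. The groups did not overlap, and the difference of -0.29 ± 0.11 did not pass (adjusted p = 0.151). Its partner Cox4i2, known from lung and from low oxygen, was dim, between -3.63 and -2.16. Cox6b1 lay between 2.02 and 2.77 on all arrays, and Cox6b2, the testis form, between -3.40 and -1.0 with no group that passed. Cox7c, which had the narrowest span of group means in complex IV, lay between 4.35 and 4.85. Cox7b lay between 5.05 and 5.82 and Cox8a between 7.29 and 8.17, while their second genes Cox7b2, Cox8b and Cox8c were those that did not pass the filter. Cox7a2l, which helps join complexes III and IV, was higher than in VOID by 0.40 in p363-549, by 0.42 in p1-361, by 0.37 in D361E and by 0.33 in WT, with no call.

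Complex V had no gene that passed in any of the 9 comparisons. Atp5g1, Atp5g2 and Atp5g3 encode the same mature ring subunit with different import signals. Atp5g1 lay between 4.97 and 5.93 on all arrays, Atp5g2 between 7.26 and 8.01 and Atp5g3 between 5.33 and 6.42, with all group ranges overlapping VOID. Atp5k, which encodes subunit e in the membrane part, was 5.59, 5.67, 5.11 and 5.36 with both fragments, against 5.37, 4.88, 4.64 and 5.05 in VOID, a difference of 0.45 ± 0.19 (adjusted p = 0.211). Atp5d, the delta subunit of the central stalk, was 4.14, 4.12, 4.21 and 4.62 with both fragments, against 4.60, 4.44, 4.52 and 4.24 in VOID. Its first 3 both-fragment arrays lay below all VOID arrays and the fourth above them. Atp5s, a coupling factor gene, was -3.52, -3.59, -2.58 and -3.0 with both fragments, against -3.0, -2.83, -2.29 and -3.25 in VOID, and the groups overlapped. The brightest probes of Atp5j2 and Atp5l are placed by the array file on other chromosomes than their genes and may read a copy.

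Taken by complex, small differences with both fragments mostly had the same sign. The median change against VOID was 0.15 in complex I, 0.14 in its assembly factors, 0.16 in complex II, 0.19 in complex III, 0.03 in complex IV and 0.09 in complex V. All 8 complex III genes, 34 of 38 complex I genes and 14 of 18 complex V genes were above 0, but 8 of 15 in complex IV. Over all 91 genes the median was 0.14, against -0.01 over all 15055 genes, and 74 of 91 (81.3%) were above 0, against 49.2% of all genes. The median was 0.04 in p363-549, -0.02 in p1-361, 0.00 in D361E and -0.02 in WT. Leaving out the 3 arrays gave 0.11 with both fragments (-0.02 over all genes), -0.04 in p363-549 and -0.05 in p1-361, so that the p363-549 median changed sign, and 68 of 91 were above 0 with both fragments. The complex IV median with both fragments also changed sign, to -0.03, and those of complexes I, II, III and V were 0.11, 0.26, 0.15 and 0.11. These medians describe the gene set and carry no test.

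Array brightness moved with the both-fragment median. With brightness as a covariate it was 0.04, against 0.03 over all genes. On the slides that held both groups it was -0.03 and 0.28, each from 1 array of either group. With slide as a fixed or a random block the median was 0.11 and 0.13, close to the 0.14 of the main fit. Array by array, the median deviation of the 91 genes from their means over all arrays was -0.02 to 0.24 with both fragments and -0.13 to 0.07 in VOID, so the groups overlapped. The medians also moved with the title-number sets, being negative in all 6 groups in the third set and positive in all 6 in the fourth. Within the 4 sets, the both-fragment median minus the VOID median was 0.11, 0.36, 0.02 and 0.08. It was above 0 in each set, and in the third set both medians were below 0. The deviation reached 0.20 on the fourth p363-549 array and 0.21 on the fourth D361E array.

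**Figure D4:**
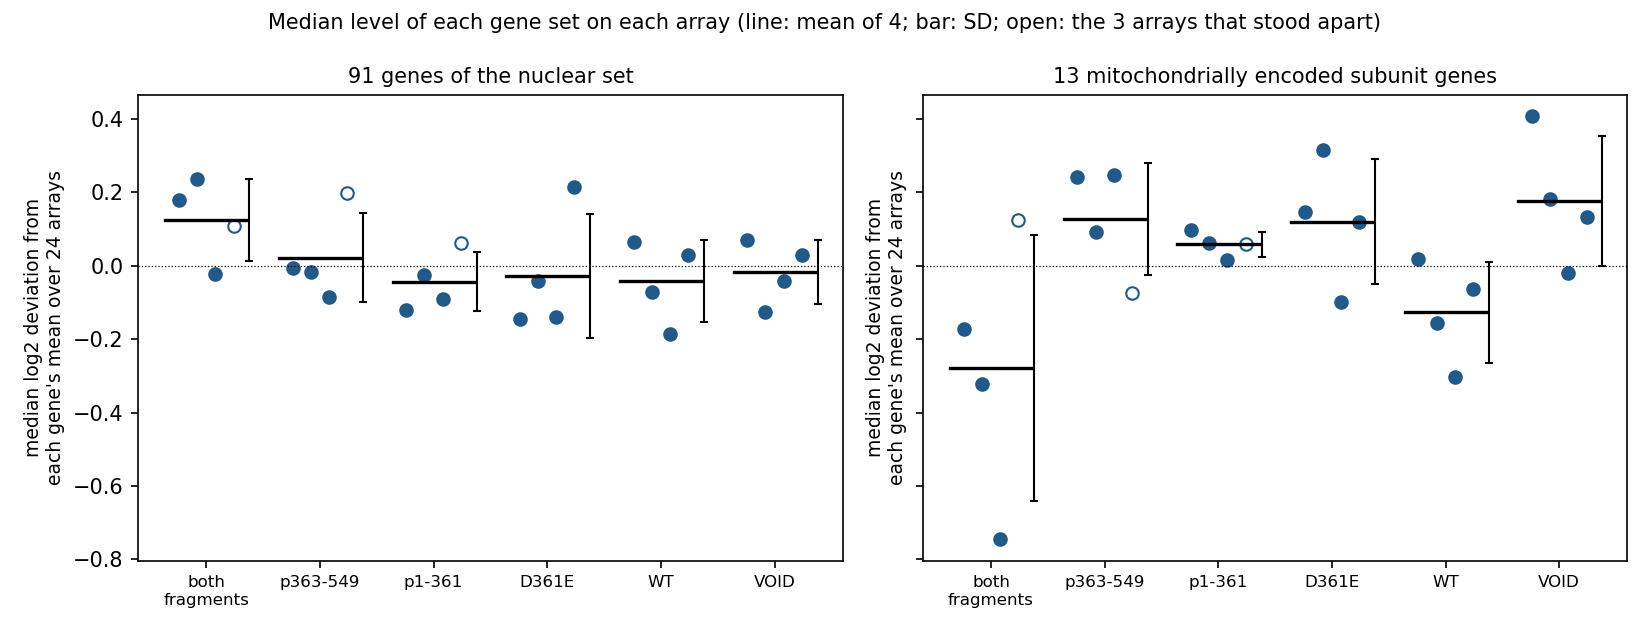
Median log2 deviation of the 91 nuclear genes (left) and of the 13 subunit genes of mitochondrial DNA (right) from each gene's mean over 24 arrays, 1 point an array, by group; lines are means of 4 arrays, bars are SD, and open points are the 3 arrays that resembled another group. With both fragments the nuclear median averages 0.13 and the mitochondrial median -0.28, and both overlap VOID.

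Against full-length p65, the both-fragment arrays gave 1 call, where 1.06% of all genes passed. Cox6a2 fell by 2.77 on the log2 scale (SE 0.52; adjusted p = 0.0114), with all both-fragment arrays below all WT arrays, as held for 2 of 91 (3.28% of all genes), while 5 of 91 lay above (4.18%). The call was lost with slide as a fixed block (-2.38, adjusted p = 0.0599) and without the first or the second both-fragment array (-2.69 and -2.50, adjusted p = 0.0594 and 0.0760). Without the 3 arrays, 4 of 91 passed (5.55% of all genes): Cox6a2 at -3.0, Cox7a1 at 1.35, Ndufs3 at 0.41 and Uqcrb at 0.57. Without the fourth both-fragment array alone, Cox6a2, Cox7a1 and Ndufs3 passed. At an unadjusted p under 0.05 the both-fragment comparison had 11 of 91, where 12.6% of all genes did. For p363-549, p1-361 and D361E against WT, 0 of 91 passed, where 0.146%, 0.126% and 0.0797% of all genes did. At an unadjusted p under 0.05 these had 1, 3 and 0 of 91, where 5.19%, 3.02% and 3.07% of all genes did. Without the 3 arrays Cox6a2 passed in p1-361 against WT, at -1.92 (adjusted p = 0.00577). Comparisons with VOID share the VOID arrays, and those with WT share the WT arrays.

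The intervals describe how precisely each change was measured between these samples. They were not adjusted for the number of genes or comparisons and rest on a spread that may be technical. They therefore do not bound what the transfections could have changed. In each comparison the 95% interval of the change lay within 1 log2 unit on either side of 0 for most of the 91 genes. With both fragments against VOID this held for 85 of 91 (93.4%, against 72.2% of all genes), and in WT against VOID for 87 of 91 (95.6%, against 79.6%). The median distance from the estimate to the end of its interval was 0.33 log2 units over the 91 genes and 0.47 over all genes. Of the 30 genes with more than 1 passing probe, all probes had the same sign in 20 with both fragments against VOID.

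The 13 subunits encoded by mitochondrial DNA were below 0 with both fragments, whereas most nuclear genes were above 0. All 13 were lower with both fragments than in VOID, by differences from -0.82 (ND6) to -0.29 (COX3), with a median of -0.50, and 1 passed, where 4.45% of all genes passed and 2.50% fell. Full-length WT also had all 13 below VOID, with a median of -0.32 and 0 passing, and against WT the both-fragment median was -0.10 with 12 of 13 below 0. The medians against VOID were -0.06 in p363-549, -0.13 in p1-361 and -0.11 in D361E. Lower values were thus not limited to both fragments. ND2, a membrane-arm subunit of complex I, was 5.76, 5.56, 5.19 and 5.67 with both fragments, against 6.29, 6.12, 6.16 and 5.89 in VOID. The groups did not overlap, and ND2 fell by 0.57 on the log2 scale (SE 0.16; adjusted p = 0.0415). The call was lost in 19 of 38 alternatives, among them without each of the first 3 both-fragment arrays, without each of the first 3 VOID arrays and without 7 arrays of other groups. It was also lost with brightness as a covariate (-0.47, adjusted p = 0.228) and with quantile normalization (-0.47, adjusted p = 0.113). The 75th percentile, to which all 13 are relative, was 847 to 1214 signal units with both fragments and 666 to 924 in VOID. Before scaling, the COX3 signal was 97178.5 to 110501 with both fragments and 91408.6 to 102353 in VOID. The ND2 signal was 30891.2 to 57767.5 with both fragments and 46080.7 to 64118.9 in VOID. The 13 differences are thus relative to that percentile and do not show a lower unscaled signal for every gene. With the 3 arrays left out the ND2 difference was -0.61 (adjusted p = 0.00951), and 4 of the 13 passed, where 9.57% of all genes did: ND1, ND2, ATP6 and ATP8. The array file places the probes of 6 of the 13 on chromosome 1, so those may read a nuclear copy.

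In the other lists of mitochondrial genes, few members passed with both fragments against VOID, where 4.45% of all genes passed, 18.6% had an unadjusted p under 0.05 and 49.2% were above 0. Of 34 assembly factors tested outside the Nduf names, 1 rose with both fragments: Cox20, which holds newly made COX2 during complex IV assembly. Cox20 was 2.52, 2.66, 2.92 and 1.67 with both fragments, against 1.47, 1.31, 1.61 and 1.52 in VOID, a rise of 0.96 ± 0.26 (adjusted p = 0.0364) that was lost in 12 of 38 alternatives, among them without each of the first 3 both-fragment arrays and without each VOID array. With the 3 arrays left out it was 1.22 (adjusted p = 0.000174). The fourth both-fragment array was again the lowest, though above every VOID array. Of 20 genes of the citric acid cycle and pyruvate entry, 0 passed and 19 were above 0, with a median of 0.21. Of 17 regulators of mitochondrial biogenesis and 7 carriers and inhibitors, 0 passed, with medians of 0.11 and 0.17. At an unadjusted p under 0.05 the lists of 20, 17 and 7 had 2, 3 and 2 genes. When the 3 arrays were left out and 9.57% of all genes passed, the lists gave 1 of 34 (Cox20), 3 of 20 (Mpc1, Mpc2 and Suclg2), 1 of 17 (Tfb1m) and 0 of 7. Mpc1 and Mpc2 form the mitochondrial pyruvate carrier.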

How the data were processed

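RNA of 24 samples in 6 groups of 4 was hybridised in 1 colour to Agilent arrays, 4 to a slide. The deposited intensity values are processed signals of Agilent Feature Extraction 10.7.3.1, already background-subtracted, per the file headers, and the series value table held the same intensity values as the authors' scanner files. Control spots and spots marked as outliers (185 to 312 per array) were left out, spots of a probe were averaged, and log2 signals were taken relative to the array's 75th percentile. Probes were kept when every array of 1 or more groups read them well above background, and the brightest stood for each of the resulting 15055 genes. A linear model over all 24 arrays gave each group its own mean (limma 3.58.1, R 4.3.3, moderated tests, two-sided), p-values were adjusted by Benjamini-Hochberg over all genes, and 9 comparisons and an F test were made. The script was tested on simulated data.

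The genes and lists were chosen with earlier results of these data known. Named were every gene that passed, for each complex the 3 smallest F-test p-values and the narrowest range of group means, complex II, cytochrome c, the isoform pairs, and genes of other lists that passed. Genes that passed only without the 3 arrays, and a few with the next smallest p-values, were added after their values were seen. Alternatives changed background correction, scaling, filter, probe choice, blocks, covariates and the arrays used. Array number, not read depth, limits precision. Values of 1 gene of the set are not reported here.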

Additional observations from a re-analysis of the deposited data

Results flagged for a closer look

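In 288 sets of 4 arrays (the named genes and the medians by complex, in each group), 10 sets (3.47%) had an array far from the other 3, where chance gives about 1 in 20. All values are log2 signals relative to the array's 75th percentile, and no explanation was tested. Cox7a1 stood at 1.83 on the fourth p363-549 array, the other 3 lying between 0.12 and 0.34, and at -0.44 on the fourth p1-361 array, the other 3 lying between 0.30 and 0.40. Cox7a2 stood at 5.29 on the fourth p363-549 array, against 4.85 to 4.89 on the other 3. In p1-361, Cox4i1 stood at 7.05 on 1 array against 7.20 to 7.23 on the others, and Uqcrfs1 at 3.62 on another array against 3.95 to 4.00. Sdha stood at 4.05 on the fourth D361E array, against 3.41 to 3.44 on the other 3. Atp5l stood at 5.88 on the third both-fragment array, against 6.10 to 6.11. Atp5g2 stood at 7.83 on the third WT array, against 7.43 to 7.45. Ndufaf5 stood at -1.74 on the first VOID array, against -1.48 to -1.45. Cox8c, which did not pass the filter, stood at -3.45 on the second p363-549 array, against -6.72 to -6.26.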

How the results depend on the processing

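Of 379 counts of genes that passed, over 10 tests and their alternatives, 351 stayed within 1.5 times of the reported count. The share of all genes that passed under the same alternative stands in brackets. With both fragments against VOID (reported 2, 4.45%), the count was 9 with title-number sets as a block (16.1%), 1 with brightness as a covariate (2.13%), 1 with only the arrays compared (1.95%), 6 without the 3 fragment arrays numbered 4 (9.57%), and 2 to 4 with single arrays left out (2.01% to 7.01%). With both fragments against WT (reported 1, 1.06%), it was 0 with slide as a fixed block (0.206%), 7 with title-number sets (7.37%), 4 without the 3 arrays (5.55%), and 0 to 3 with single arrays left out (0.219% to 3.28%). In p1-361 against VOID (reported 0, 0.717%), it was 2 with title-number sets (3.00%), 1 with only the arrays compared (0.658%), 4 without the 3 arrays (2.66%), and 0 to 1 with single arrays left out (0.345% to 1.14%). In p1-361 against WT (reported 0) it was 1 without the 3 arrays (0.697%). With title-number sets it was 2 in WT (1.47%) and 1 in p363-549 (1.80%) against VOID (reported 0 in each). The F test (reported 1, 2.82%) gave 2 with quantile normalization (3.18%), 2 with the percentile over detected probes (2.90%), 6 with title-number sets (11.1%), 5 without the 3 arrays (9.85%), and 1 to 3 with single arrays left out (1.68% to 5.31%).

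The title-number sets gave, with both fragments against VOID, Atp5k, Cox4i1, Cox6a2, Ndufa11, Ndufs8, Ndufv1, Ndufv2, Uqcr11 and Uqcrb. Of 1330 medians by complex under the alternatives, 9 moved by more than 1 SD between arrays, pooled over the groups. Over the 91 genes the SD within a group was 0.08 to 0.17, as large as the medians themselves. The count therefore does not show that the medians were stable. In WT against VOID with normexp background correction, the medians were -0.15 over all 91 genes, -0.14 in complex I and -0.15 in complex IV. In complex IV the p1-361 median was 0.01 with normexp, and 0.07 without the 3 arrays or without the fourth p1-361 array. The assembly-factor median was -0.02 in p363-549 without the 3 arrays or the fourth p363-549 array, and 0.29 with both fragments without the fourth VOID array. With no filter on dim probes, the median of all genes shifted to -0.20 with both fragments against VOID, against 0.13 over these genes. The labels give no replicate numbers shared between groups, and the title-number sets served as the block. With 4 arrays a group, the 95% interval of a change, without adjustment, reached a median of 0.33 log2 units on either side. Smaller changes of a gene were thus not detectable in most cases, and some larger ones given above did not pass after adjustment.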
